A study of Mus musculus with 16 samples.

Results

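Mitosis and DNA synthesis genes were followed in mouse periodontal tissue in which a silk ligature, a raised bite or both had been applied to a molar. The genes were 39 symbols chosen by name, and every one was found in the deposited count table of 55359 genes. They were split by role into 15 genes of S phase, when DNA is copied, and 24 genes of G2 and mitosis, when chromosomes are separated. The helicase genes of the MCM family were kept apart and serve here only as a comparison list. All 39 members passed the filter on low counts, which left 20953 genes for testing.

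All libraries came from 9-week-old wild-type male C57BL/6J mice and fall into 4 groups of 4. The control group had no treatment. The ligature group carried a silk thread around the upper left second molar, which collects bacterial plaque and is a standard model of periodontitis. In the trauma group composite resin was bonded onto the chewing surface of the same tooth, a model of traumatic occlusion, and the last group carried both. The labels do not give the time between placing these and taking tissue, nor do they say whether 1 library is 1 mouse, so the p-values measure the spread between libraries, which may be partly technical. The tissue is labelled periodontal ligament, while the series is titled for bone tissue. Markers of ligament fibroblasts summed to between 41900 and 105100 CPM (a count relative to the effective size of its library) over the 16 libraries, and osteoblast markers to between 6778 and 14140. These sums are over different genes, so they do not give the shares of ligament and bone. In a bulk sample, more cells in division and more RNA of these genes per cell cannot be told apart.

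As a cell enters division, cyclin E with its kinase helps to release E2F factors. These switch on the enzymes that make nucleotides, license origins and copy DNA. Later, cyclin B with the kinase Cdk1 drives mitosis, in which aurora and polo kinases, kinesin motors and centromere proteins separate the chromosomes. Each set of genes is known to be transcribed in its own part of the cycle, through E2F sites for many S-phase genes, and through the CHR element together with CCAAT boxes, bound by NF-Y, for many mitotic genes. In the periodontal ligament few cells divide at rest, and dividing cells are known from wound repair, tooth movement and inflammation.

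Promoters are shown for 3 mitotic and 3 S-phase genes, since the results below turn on how these sets moved together or apart. The sequences are from RefSeq on build GRCm38.p6, which is an earlier build than that of the deposited counts, and cover 150 bases before to 30 after the start of each gene on its own strand. Capitals mark motif letters on either strand, so ATTGG is CCAAT and GCGGGAAA is TTTCCCGC on the other strand.
Cdk1 (chr10:69352883-69353062, minus strand): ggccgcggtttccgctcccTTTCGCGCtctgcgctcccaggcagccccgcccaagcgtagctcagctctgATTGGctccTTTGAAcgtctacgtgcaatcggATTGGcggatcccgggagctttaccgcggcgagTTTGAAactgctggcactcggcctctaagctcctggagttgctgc
Ccnb1 (chr13:100786457-100786636, minus strand): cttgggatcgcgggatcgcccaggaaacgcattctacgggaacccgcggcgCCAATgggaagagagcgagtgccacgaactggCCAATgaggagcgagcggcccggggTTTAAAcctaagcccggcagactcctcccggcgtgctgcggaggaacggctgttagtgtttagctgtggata
Plk1 (chr7:122159285-122159464, plus strand): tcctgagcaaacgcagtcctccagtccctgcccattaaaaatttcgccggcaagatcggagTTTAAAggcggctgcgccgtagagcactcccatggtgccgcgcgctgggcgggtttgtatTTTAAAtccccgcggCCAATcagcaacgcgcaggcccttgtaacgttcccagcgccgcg
Ccne1 (chr7:38107461-38107640, minus strand): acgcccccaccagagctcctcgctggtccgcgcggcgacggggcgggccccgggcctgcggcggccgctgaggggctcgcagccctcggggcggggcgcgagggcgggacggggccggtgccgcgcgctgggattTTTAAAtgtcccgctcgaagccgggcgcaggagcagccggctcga
Cdc6 (chr11:98908001-98908180, plus strand): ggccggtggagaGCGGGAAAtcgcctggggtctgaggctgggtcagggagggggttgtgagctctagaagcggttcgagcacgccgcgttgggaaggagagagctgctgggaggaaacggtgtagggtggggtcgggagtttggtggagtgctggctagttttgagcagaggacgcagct
E2f1 (chr2:154569397-154569576, minus strand): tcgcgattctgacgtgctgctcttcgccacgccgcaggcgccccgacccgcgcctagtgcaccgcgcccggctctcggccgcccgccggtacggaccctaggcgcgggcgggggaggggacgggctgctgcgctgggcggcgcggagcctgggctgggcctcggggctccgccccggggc
Cdk1 and Plk1 held CHR letters and CCAAT boxes close to the start of the gene, and so did Ccnb1. Cdc6 held an E2F match 138 bases before its start, Ccne1 held 1 CHR match, and the E2f1 window held none of the letters searched.

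The letters searched were TTTGGCGC, TTTCGCGC, TTTCCCGC and TTTGCCGC for E2F, TTTGAA and TTTAAA for CHR, and CCAAT. Both strands of 250 bases before to 50 after each start were read, and since matches of different kinds may overlap, each kind was counted on its own. RefSeq promoters were at hand for 32 of the 39 members, 13 of S phase and 19 of mitosis. CHR letters and a CCAAT box stood together in 16 of 19 mitotic promoters (84.2%) and in 2 of 13 S-phase promoters (15.4%), against 10.9% of the first promoters of 27025 genes. CHR letters, with or without CCAAT, were found in 17 mitotic promoters (89.5%), 4 S-phase promoters (30.8%) and 27.8% of all genes. CCAAT was found in 17 mitotic promoters, in 7 of S phase (53.8%) and in 37.9% of all genes. E2F letters were found in 3 of 13 S-phase promoters (23.1%), those of Cdc6, Cdt1 and Pola1, in 1 of 19 mitotic promoters (5.26%), that of Cdk1, and in 2.32% of all genes. A match is a description of letters and not evidence of a bound factor.

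Total counts per library ranged from 58458102 to 77468584. Before any comparison, 3 libraries stood apart, namely ligature 2 and, of the group with both, numbers 2 and 3. Their counts leaned to genes with a short coding sequence, with rank correlations of -0.41, -0.37 and -0.37 across genes between coding length and a gene's deviation from its mean over the 16 libraries. They were -0.13 to 0.32 in the other 13 libraries. In control 1 to 4 they were 0.315, 0.283, 0.109 and 0.301. In trauma 1 to 4 they were 0.137, 0.097, -0.128 and -0.057, mostly lower than in control, with overlap. Among the 39 members, the deviation was taken from the libraries of the group outside the 3 that stood apart. The rank correlation was then -0.81 in ligature 2, -0.69 in ligature plus trauma 2 and -0.58 in ligature plus trauma 3. In ligature 2 the 25 members with under 2000 coding bases had a median deviation of 0.41 on the log2 scale and the 14 longer ones -1.03, with 17 of 25 and 0 of 14 above 0. The medians were 0.03 and -1.16 in ligature plus trauma 2, and 0.23 and -0.33 in ligature plus trauma 3. Of the ligature libraries, short members such as Birc5 and Tyms read highest in ligature 2, and long ones such as Kif11 and Bub1 read lowest there. Counts are given below with and without these 3 libraries.

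**Figure D1:**
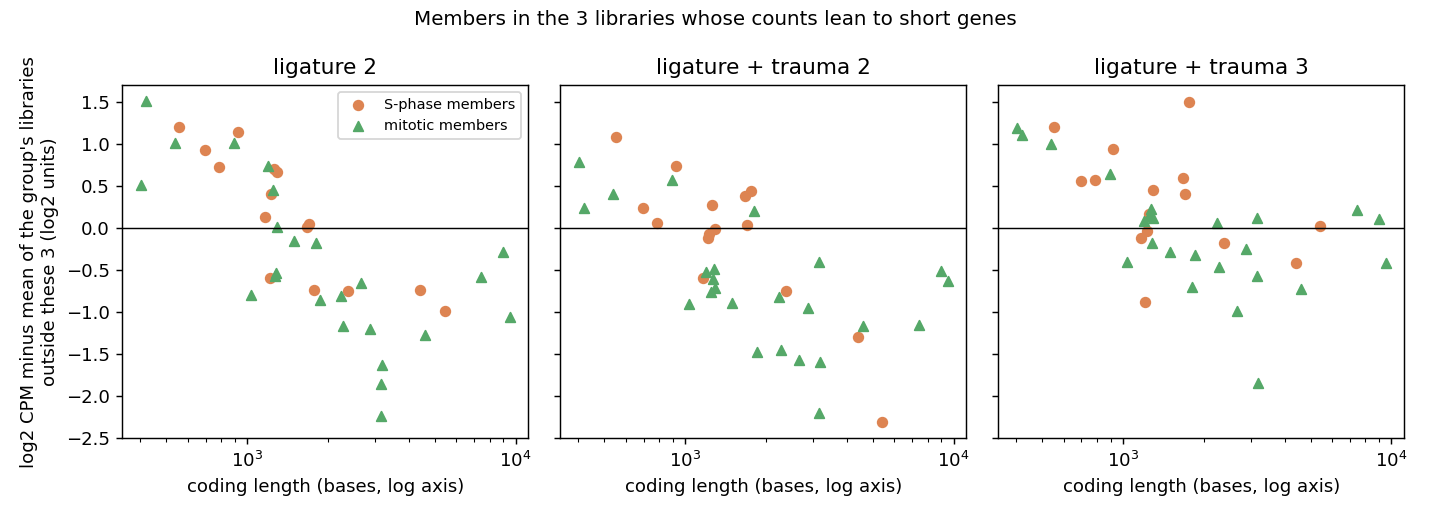
Each point is a member, with coding length in bases on a log axis and, on the vertical axis, its log2 CPM in the named library minus the mean of the libraries of its group outside these 3. Long members sit below 0 in ligature 2 and ligature plus trauma 2, where 0 of 14 are positive.

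In control tissue, levels per coding kilobase spanned from 0.341 CPM for Cdc6 and 0.371 for Brca1 to 41.6 for Rrm1 and 86.6 for Pcna. Only the coding sequence entered the length, not the rest of the transcript, so ranks between genes on this scale are rough. Pcna, the clamp that holds DNA polymerase, and Rrm1, the large subunit of ribonucleotide reductase, also act in DNA repair outside S phase. Mitotic members lay between 0.894 CPM per kilobase for Cenpf and 30.3 for Birc5. Cdc6 rested on as few as 17 counts in a control library, the lowest count of any member.

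Genes of both sets rose with the ligature. Of 39 members, 28 rose against control and 0 fell, 11 of 15 in S phase and 17 of 24 in mitosis, where 5.88% of all 20953 genes rose and 4.78% fell. The median log2 fold change was 1.36 over the S-phase members and 1.501 over the mitotic members, beside -0.05 over all genes tested. In 31 members, 12 of S phase and 19 of mitosis, each ligature library lay above each control library, which held for 9.97% of all genes. The test was edgeR's quasi-likelihood test, and a gene rose when its Benjamini-Hochberg adjusted p over all genes was under 0.05.

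Among the S-phase regulators, Cdc6, which loads the helicase at origins, had the highest fold. It read 0.604, 0.477, 0.219 and 1.11 CPM in the control libraries 1 to 4 and 9.41, 4.47, 7.59 and 5.94 CPM with the ligature. All ligature libraries lay above all controls, a change of 3.51 ± 0.60 on the log2 scale (± SE; edgeR adjusted p = 0.00209), or 11.4-fold. Ccne1, cyclin E1, which starts S phase, read 3.60, 5.67, 3.72 and 3.95 CPM in control and 15.8, 14.4, 9.50 and 8.66 CPM with the ligature (1.51 ± 0.26, edgeR adjusted p = 0.0019). E2f1, the activator of S-phase genes, read 2.88, 4.90, 4.504 and 3.37 CPM in control and 8.86, 10.9, 6.67 and 5.45 CPM with the ligature. Its groups were close but did not overlap (1.03 ± 0.31, edgeR adjusted p = 0.0444). Cdt1, the partner of Cdc6 in origin licensing, rose by 1.36 ± 0.32.

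The replication fork and the nucleotide enzymes followed. Cdc45, part of the active helicase, read 4.33, 3.19, 1.93 and 1.91 CPM in control and 12.4, 11.1, 10.6 and 9.44 CPM with the ligature (1.94 ± 0.29, edgeR adjusted p = 0.000986). Tyms, thymidylate synthase, read 13.5, 14.7, 15.96 and 15.2 CPM in control and 57.9, 117, 52.3 and 48.7 CPM with the ligature. Its control libraries were within a narrow range, and the change of 2.22 ± 0.32 had the lowest p of all members (edgeR adjusted p = 0.000789). Tk1, thymidine kinase of the salvage pathway, read 6.73, 6.78, 4.71 and 3.91 CPM in control and 18.6, 36.0, 19.3 and 19.1 CPM with the ligature (2.07 ± 0.35). Tyms and Tk1 are short, and both were highest in ligature 2. Rrm2, the small subunit of ribonucleotide reductase whose supply limits the enzyme in S phase, read 23.1, 19.8, 10.6 and 13.6 CPM in control and 60.5, 55.7, 48.3 and 45.2 CPM with the ligature (1.64 ± 0.33). Pcna read 49.4, 71.0, 74.7 and 76.2 CPM in control and 110.0, 174, 111 and 96.3 CPM with the ligature, a smaller change (0.86 ± 0.25, edgeR adjusted p = 0.0391). Gins2, another helicase subunit, and Brca1, which repairs broken and stalled forks, rose by 1.34 ± 0.35 and 2.08 ± 0.58.

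S-phase members did not all pass. Rrm1 stood at 0.44 ± 0.22, Prim1, the small primase subunit, at 0.66 ± 0.28 and Ccne2, cyclin E2, at 1.04 ± 0.33 (edgeR adjusted p = 0.207, 0.135 and 0.0545). Pola1, the catalytic subunit of polymerase alpha, was the only member with a negative value (-0.20 ± 0.46). It read 20.9, 11.4, 11.4 and 17.9 CPM in control and 20.7, 8.24, 17.5 and 7.22 CPM with the ligature, and these ranges overlap widely.

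Among mitotic members the entry kinase led. Cdk1 read 12.1, 21.0, 12.5 and 10.96 CPM in control and 72.7, 128, 64.3 and 55.4 CPM with the ligature. Even the lowest ligature library was above the highest control, and the change was 2.502 ± 0.37 (edgeR adjusted p = 0.000928), or 5.67-fold. Its cyclins differed in how they read: Ccnb2, cyclin B2, went from 8.28, 7.80, 8.04 and 6.21 CPM to 33.2, 46.0, 27.3 and 23.2 CPM (2.096 ± 0.32, edgeR adjusted p = 0.00103). Ccna2, cyclin A2, which acts in S phase as well, went from 22.9, 18.5, 15.1 and 15.4 CPM to 74.1, 43.5, 64.5 and 56.6 CPM (1.73 ± 0.30). Ccnb1, cyclin B1, read 25.3, 28.8, 20.3 and 21.3 CPM in control and 71.1, 59.7, 58.8 and 49.2 CPM with the ligature. Its groups did not overlap, yet the test across all genes was missed (1.32 ± 0.43, edgeR adjusted p = 0.0582).

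Spindle kinases and their partners came next. Aurka, aurora kinase A, which builds the spindle poles, read 8.80, 9.44, 4.31 and 5.07 CPM in control and 25.5, 31.1, 20.4 and 22.8 CPM with the ligature (1.85 ± 0.35). Plk1, polo-like kinase, read 4.23, 4.22, 2.38 and 2.11 CPM in control and 9.73, 7.07, 6.41 and 8.21 CPM with the ligature (1.28 ± 0.49, edgeR adjusted p = 0.103). Plk1 did not pass although its ligature libraries all lay above its controls. Aurkb, aurora B, and its partner Birc5, survivin, rose by 1.78 ± 0.44 and 2.22 ± 0.43, and Tpx2, the activator of aurora A, by 1.43 ± 0.33. The checkpoint kinase Bub1 rose by 2.08 ± 0.49 and its relative Bub1b by 1.42 ± 0.39. Cdc20, the activator of the anaphase-promoting complex, stood at 0.95 ± 0.40 and did not pass, while Ube2c, the ubiquitin-conjugating enzyme of that complex, rose by 1.89 ± 0.40.

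Mki67, the antigen Ki-67 that coats mitotic chromosomes and is used to stain dividing cells, read 21.1, 27.0, 16 and 17.4 CPM in control and 58.5, 30.02, 74.9 and 56.8 CPM with the ligature. Top2a, which untangles sister chromosomes, read 27.8, 36.8, 23.8 and 20.4 CPM in control and 117, 36.5, 93.6 and 63.6 CPM with the ligature. Both passed narrowly (1.43 ± 0.42 and 1.51 ± 0.46, edgeR adjusted p = 0.04 and 0.0453), and both are long genes read low in ligature 2, where Top2a fell within the control range. Of the centromere proteins, Cenpa and Cenpf rose by 1.49 ± 0.29 and 1.45 ± 0.42, and Cenpe stood at 1.64 ± 0.52. Of the kinesins and midzone proteins, Kif20a, Kif23 and Nusap1 rose, while Kif11 (1.35 ± 0.57) and Prc1 (1.29 ± 0.43) did not pass. Foxm1, the factor that activates many mitotic genes, did not pass either (1.27 ± 0.47, edgeR adjusted p = 0.0924).

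Without the 3 libraries that leaned to short genes, 29 members rose with the ligature, where 4.49% of 22807 genes did, and the medians were 1.35 in S phase and 1.64 in mitosis. With 1 library left out at a time, between 19 and 31 members rose, and 18 of the 28 calls, 7 of S phase and 11 of mitosis, held in each of these fits.

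**Figure D2:**
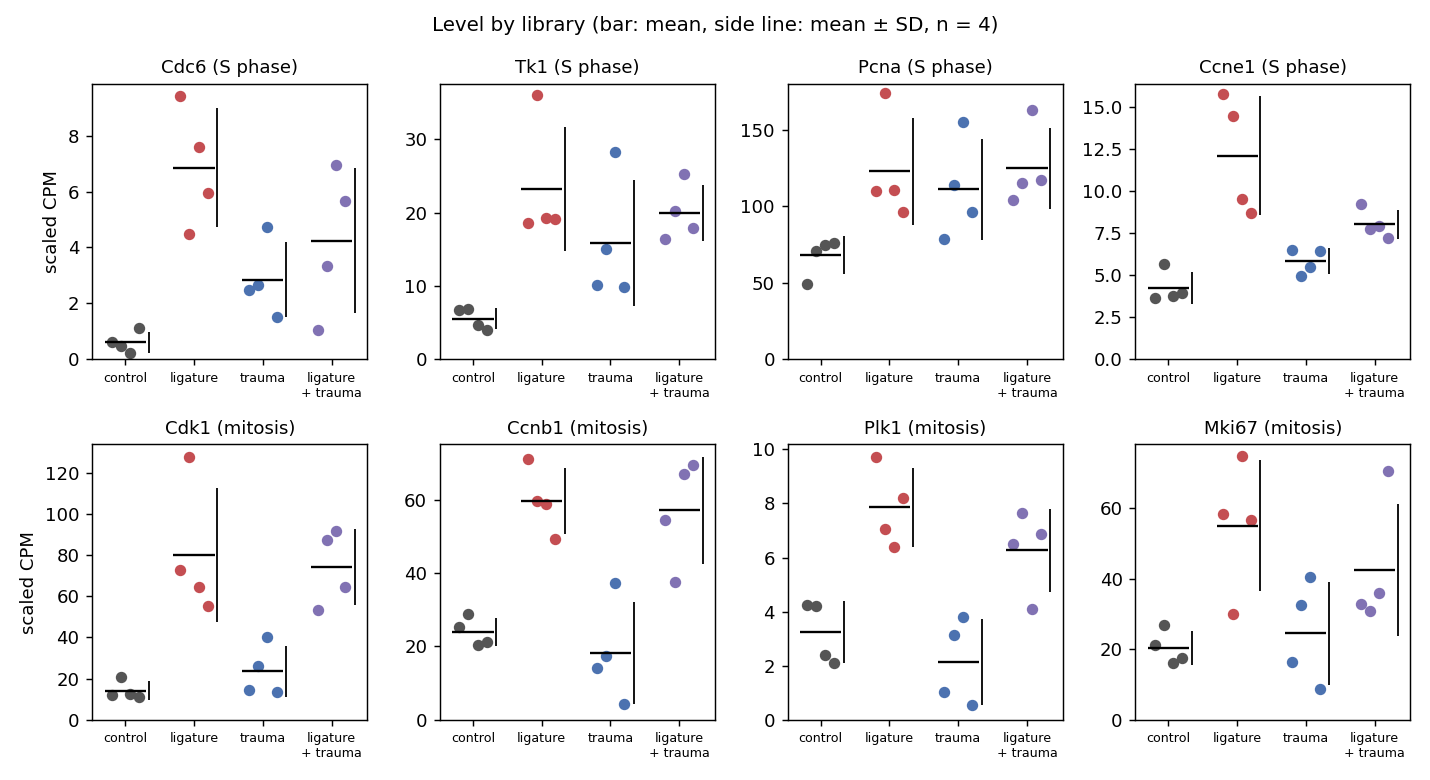
CPM of 4 S-phase genes (upper row) and 4 mitotic genes (lower row) in each of the 16 libraries; bars are means and side lines mean ± SD of 4 libraries. Cdc6, Tk1 and Pcna in the trauma libraries lie above all controls, while the S-phase gene Ccne1 and the 4 mitotic genes overlap with them. Over the whole S-phase set, 6 of 15 members lay above all controls with trauma, and 0 of 39 members passed edgeR's test there.

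Lists that hold no member read as follows with the ligature. Of 33 other DNA replication genes, 12 rose and 0 fell (median 0.81), led by Rfc2, a clamp loader subunit (1.40 ± 0.20), Chaf1b, a histone chaperone (2.14 ± 0.32), and Uhrf1, which maintains DNA methylation (2.72 ± 0.45). Of 38 other mitotic genes, 24 rose and 0 fell (median 1.48), led by the kinetochore genes Nuf2 (1.81 ± 0.30) and Ndc80 (2.38 ± 0.42) and by Cdca3 (2.19 ± 0.37). Of the 6 MCM genes, 4 rose, with Mcm5 at 2.25 ± 0.29. Of 25 tested G1 regulators and inhibitors, 0 rose and 3 fell. This is 12% called, near the 10.7% of all genes called in either direction. The genes that fell were the inhibitors Cdkn1c (-1.73 ± 0.26) and Cdkn1a (-0.66 ± 0.20) and the cyclin Ccnd2 (-0.51 ± 0.15). Cdkn1c read 51.2, 44.6, 71.4 and 54.4 CPM in control and 15.7, 18.5, 20.6 and 12.4 CPM with the ligature.

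Markers of cell types moved in the same comparison. Osteoclast markers rose in 8 of 9 genes, and their summed level went from a range of 1109 to 4123 CPM in control to 10970 to 15600 CPM. Endothelial markers rose in 7 of 10 (219 to 389 CPM in control, 704 to 862 CPM with the ligature) and mature neutrophil markers in 6 of 10 (214 to 756 CPM and 832 to 1633 CPM). Of 12 monocyte and macrophage markers, 3 rose and 3 fell, with sums of 1613 to 2398 CPM and 2615 to 3928 CPM. Basal epithelium markers fell in 4 of 9, with sums of 1620 to 10940 CPM in control and 1683 to 2466 CPM with the ligature. Of the other lists, 6 of 8 upper epithelium and 6 of 10 osteoblast markers fell, ligament fibroblast markers rose in 1 and fell in 4 of 12, and 1 of 11 tested markers of marrow granulocyte precursors fell. In each of the lists of 11 erythroid, 10 T and NK cell and 6 tested plasma cell markers 1 gene rose, and 0 passed of 10 muscle markers and of 4 tested markers of B cell precursors. Vpreb2, of the last list, was the only marker at 0 in all libraries. Their part in the rise of the dividing-cell genes was not tested.

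With trauma alone, 0 of 39 members passed the test against control, where 1 of 20953 genes (0.00477%) did. DESeq2 called 3 members higher, Cdc6, Cdc45 and Tk1, all of S phase, where it called 0.358% of 22615 genes higher. At an unadjusted edgeR p under 0.05, 10 members were higher, 8 of 15 in S phase (Cdc6, Cdc45, Pcna, Rrm2, Tyms, Tk1, Gins2 and Prim1) and 2 of 24 in mitosis (Birc5 and Kif23), where 4% of all genes were. The median log2 fold change was 0.66 over the S-phase members and 0.29 over the mitotic members, beside 0.01 over all genes. The mitotic median rests on single libraries: it was -0.05 without trauma 3, 0.10 without trauma 2 and 0.51 without trauma 4, while that of the S-phase members ranged from 0.50 to 0.85 with 1 library left out. With Ccna2, Top2a and Cdk1 left out of the mitotic set, its median was 0.07. Lists that hold no member lay closer together. Their medians were 0.39 over 33 other DNA replication genes and 0.23 over 38 other mitotic genes. The median of the 6 MCM genes was 0.65, and 0 genes of these lists passed. In 7 members each trauma library lay above each control, 6 of S phase and Kif23, where 3.65% of all genes did so. The ligature and trauma comparisons share their control libraries.

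The lowest p in S phase was that of Tk1, which read 6.73, 6.78, 4.71 and 3.91 CPM in control and 10.1, 14.98, 28.2 and 9.90 CPM with trauma (1.51 ± 0.34, edgeR adjusted p = 0.366). Cdc6 read 2.47, 2.67, 4.71 and 1.52 CPM with trauma, all above control (2.24 ± 0.57, edgeR adjusted p = 0.478). Pcna read 78.2, 114, 155 and 96.2 CPM (0.71 ± 0.25) and Rrm2 24.3, 28.6, 65.3 and 21.6 CPM (1.06 ± 0.33). Trauma 3 stands out for Rrm2, above all ligature libraries, while trauma 4 is inside the control range. Ccne1 read 6.50, 4.95, 5.44 and 6.42 CPM and E2f1 3.76, 5.61, 3.34 and 2.81 CPM, both overlapping control (0.46 ± 0.25 and -0.01 ± 0.31).

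Mitotic members spread widely among the trauma libraries. Kif23, a kinesin of the last step of division, had the lowest p among them and read 6.17, 5.86, 3.46 and 1.88 CPM in control and 6.22, 8.55, 11.2 and 8.79 CPM with trauma (0.999 ± 0.38, edgeR adjusted p = 0.664). Cdk1 read 14.7, 26.0, 40.2 and 13.7 CPM, Ccnb1 14.1, 17.4, 37.4 and 4.204 CPM and Plk1 1.03, 3.13, 3.81 and 0.529 CPM. Trauma 4 held the lowest value of Ccnb1 and of Plk1 in all 16 libraries, and trauma 3 lay above the controls for Ccnb1. Mki67 read 16.3, 32.4, 40.6 and 8.65 CPM and Top2a 27.0, 43.2, 53.7 and 11.4 CPM, so that control values fell between those of trauma 4 and trauma 3. Differences from control were -0.39 ± 0.42 for Ccnb1, -0.61 ± 0.48 for Plk1 and 0.26 ± 0.41 for Mki67, none of which passed.

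Trauma 3 gave the highest value of its group for 10 of 15 S-phase and 18 of 24 mitotic members, and trauma 4 the lowest for 9 and 21. Trauma 4 was the lowest of all 16 libraries for 16 members. Markers of basal oral epithelium, a dividing layer, summed to 6030, 9857, 19570 and 4573 CPM in trauma 1 to 4 and to 10940, 7835, 3149 and 1620 CPM in control 1 to 4. In trauma the order of libraries by these markers was that of both the mitotic and the S-phase scores given below. In control it was the exact order of neither score. Controls 1 and 2, highest in these markers, also had the highest mitotic scores, while controls 2 and 4 had the highest S-phase scores. With trauma, 0 of the 9 basal epithelium markers passed against control. Their part in the spread was not tested. Mature neutrophil markers summed to 670 to 4801 CPM with trauma, against 214 to 756 CPM in control, and 0 of 10 passed.

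**Figure D3:**
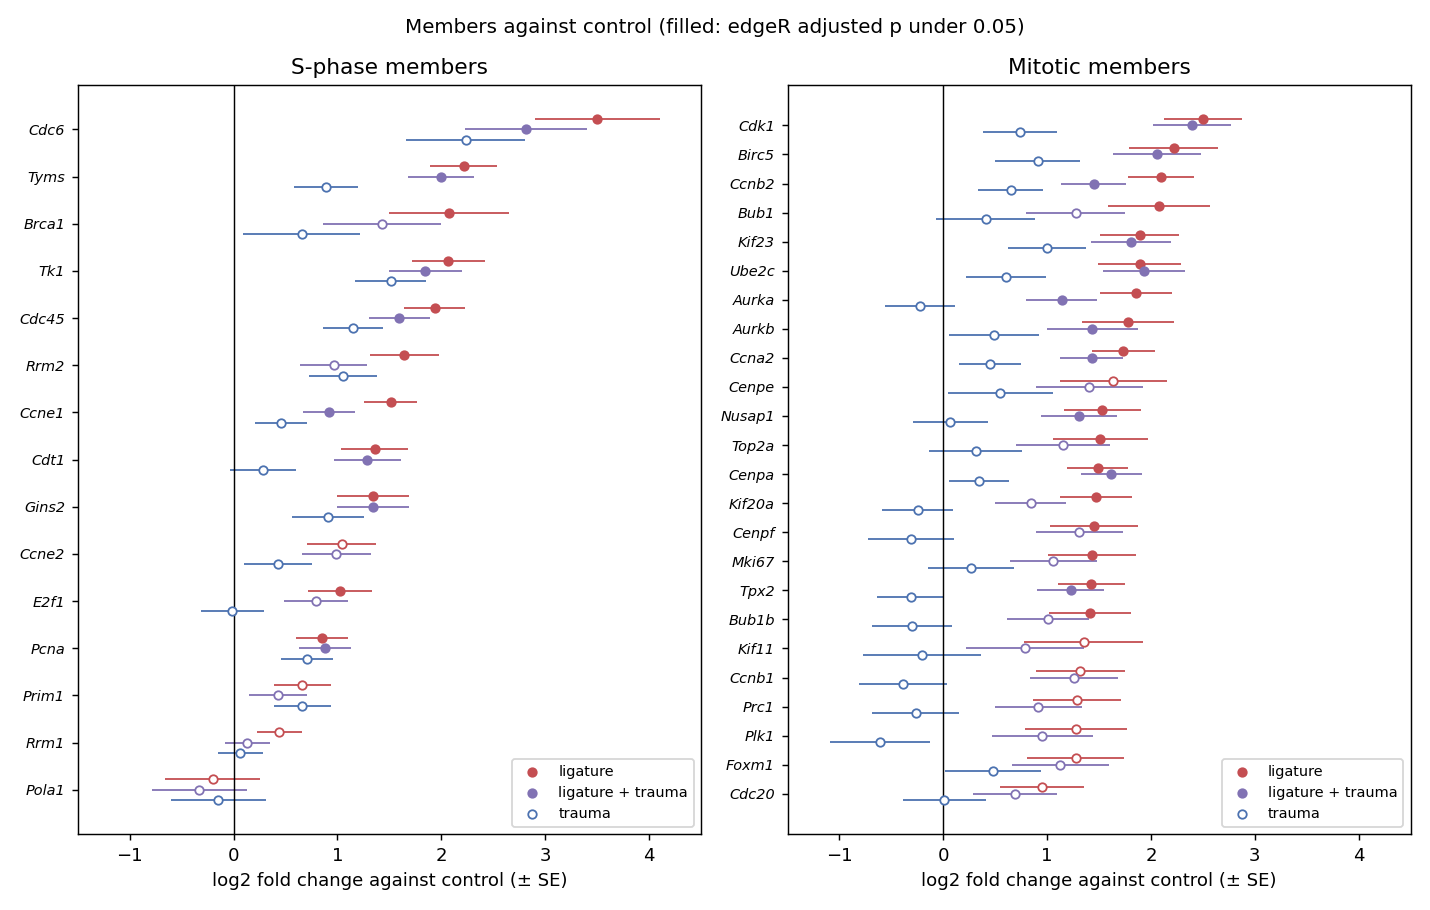
Log2 fold change against control (± SE) of each member with the ligature, with trauma and with both; filled points passed edgeR's test at an adjusted p under 0.05. No trauma point is filled, and its S-phase points have a median of 0.66 against 0.29 for the mitotic points (-0.05 without trauma 3).

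The 2 sets were set against each other by a score per library, the mean over a set of log2 CPM after subtracting each gene's mean over the 16 libraries. The S-phase score was -0.80 ± 0.15 in control, 0.61 ± 0.21 with the ligature, -0.11 ± 0.36 with trauma and 0.30 ± 0.27 with both (mean ± SD, n = 4). The mitotic score was -0.74 ± 0.36, 0.86 ± 0.29, -0.67 ± 0.75 and 0.55 ± 0.35 in the same order. With trauma the S-phase score, -0.34, 0.03, 0.33 and -0.46 in libraries 1 to 4, lay above all controls, of which the highest was -0.63. The mitotic score with trauma, -0.86, -0.22, 0.04 and -1.64, enclosed the control values of -0.46, -0.41, -1.05 and -1.05.

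The mitotic minus the S-phase score was 0.35, 0.22, -0.05 and -0.28 in the control libraries and 0.41, -0.19, 0.30 and 0.46 with the ligature. It was -0.51, -0.25, -0.29 and -1.19 with trauma and 0.63, -0.07, 0.09 and 0.37 with both. The trauma libraries were the only group with 4 negative values, and they overlap the lowest control. The median log2 fold change of the mitotic set exceeded that of the S-phase set by 0.14 for the ligature and by 0.28 for both, and the difference was -0.37 for trauma. With 1 library left out at a time, it ranged from -0.07 (without ligature 1) to 0.30 for the ligature and from 0.06 (without control 4) to 0.33 for both. The difference for the ligature therefore changes sign with 1 library. For trauma it ranged from -0.60 to -0.30, and it was -0.59 with Ccna2, Top2a and Cdk1 left out of the mitotic set. Long coding sequences were more frequent in the mitotic than in the S-phase set. With the length trend removed, the difference in medians was 0.22 for the ligature, 0.47 for both and -0.425 for trauma. Without the libraries that leaned to short genes, it was 0.30, 0.35 and -0.37 in the same order. Members were chosen with results known, so no p is given for the scores.

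**Figure D4:**
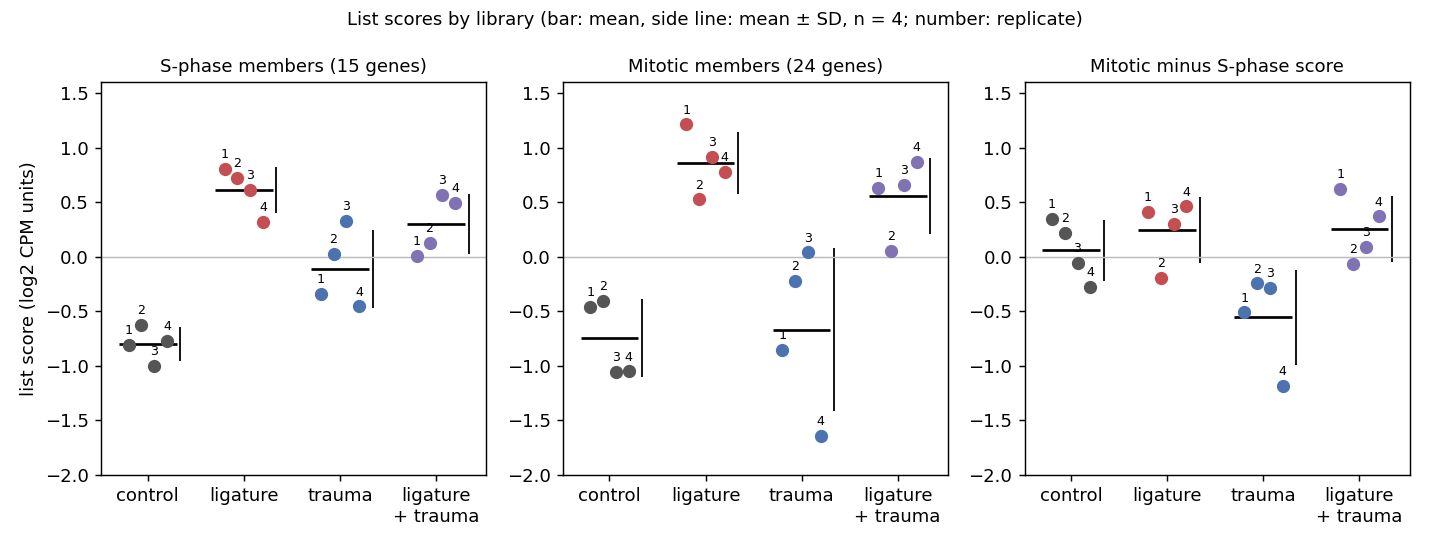
Score of the S-phase members, of the mitotic members and their difference, in log2 CPM units, for each library (number: replicate) with group mean and SD (n = 4). With trauma the S-phase scores lie above all controls, while the mitotic scores spread from -1.64 to 0.04 and overlap control.

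With ligature and trauma together, 19 of 39 members rose against control and 0 fell, 8 of 15 in S phase and 11 of 24 in mitosis, where 6.83% of all genes rose and 5.62% fell. The medians were 0.99 and 1.27 on the log2 scale, beside -0.08 over all genes. In 23 members, 8 of S phase and 15 of mitosis, each treated library lay above each control, against 10.8% of all genes. Tyms read 39.4, 70.7, 81.2 and 45.6 CPM (2.00 ± 0.32, edgeR adjusted p = 0.00165) and Cdc45 8.05, 8.09, 10.5 and 7.77 CPM (1.597 ± 0.29). Tk1 read 16.3, 20.2, 25.2 and 17.9 CPM (1.85 ± 0.35). Cdc6 read 1.05, 3.32, 6.95 and 5.66 CPM, with library 1 inside the control range, and passed (2.81 ± 0.59). Pcna and Ccne1 read 104, 115, 163 and 117 CPM and 9.23, 7.74, 7.93 and 7.18 CPM, and both rose (0.88 ± 0.25 and 0.92 ± 0.25). Rrm2 read 38.7, 24.2, 33.5 and 34.5 CPM and E2f1 5.13, 6.13, 8.41 and 7.41 CPM, above all controls, without passing (0.96 ± 0.33 and 0.79 ± 0.31, edgeR adjusted p = 0.0638 and 0.0969).

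Mitotic members under both treatments were led by Cdk1, which read 53.4, 87.4, 91.8 and 64.6 CPM (2.40 ± 0.37, edgeR adjusted p = 0.00153). Cenpa, the histone of the centromere, read 11.7, 13.1, 10.6 and 7.56 CPM in control and 23.6, 37.8, 50.1 and 20.5 CPM with both (1.62 ± 0.30). Ube2c read 11.7, 13.02, 6.98 and 9.66 CPM in control and 31.3, 39.3, 59.3 and 28.3 CPM with both (1.94 ± 0.40). Birc5 read 11.7, 17.6, 11.7 and 9.96 CPM in control and 39.6, 47.1, 85.4 and 40.2 CPM with both (2.06 ± 0.42). These 3 genes have short coding sequences and were highest in library 3, 1 of the libraries that leaned to short genes. Mki67 read 32.7, 30.9, 36.0 and 70.5 CPM and Top2a 55.5, 34.2, 46.5 and 106 CPM. Neither passed (1.06 ± 0.42 and 1.16 ± 0.45, edgeR adjusted p = 0.101 and 0.1), and library 4 held the highest value of both.

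Without the 3 libraries that leaned to short genes, 11 members rose with both treatments, 3 of S phase and 8 of mitosis, where 2 libraries were left in the group and 2.13% of 22807 genes rose. Leaving out control 1, control 4 or ligature plus trauma 3 gave 12, 12 and 11 members, where 3.27%, 3.47% and 2.59% of all genes rose. Of the 19 calls, 11 held in each fit that left out 1 library. Among lists that hold no member, 10 of 33 other replication genes, 17 of 38 other mitotic genes and 4 of 6 MCM genes rose and 0 fell. Of 25 tested G1 regulators, the inhibitor Cdkn2d rose (0.97 ± 0.27) and 4 fell, Cdkn1c, Ccnd2, Rbl2 and Cdkn2b. This is 20% called, beside 12.5% of all genes called in either direction. Osteoclast markers rose in 8 of 9 (10340 to 13100 CPM), endothelial markers in 6 of 10 (682 to 846 CPM) and mature neutrophil markers in 9 of 10 (766 to 4105 CPM), while basal epithelium markers fell in 9 of 9 (915 to 2697 CPM). Their part in the result was not tested.

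**Figure D5:**
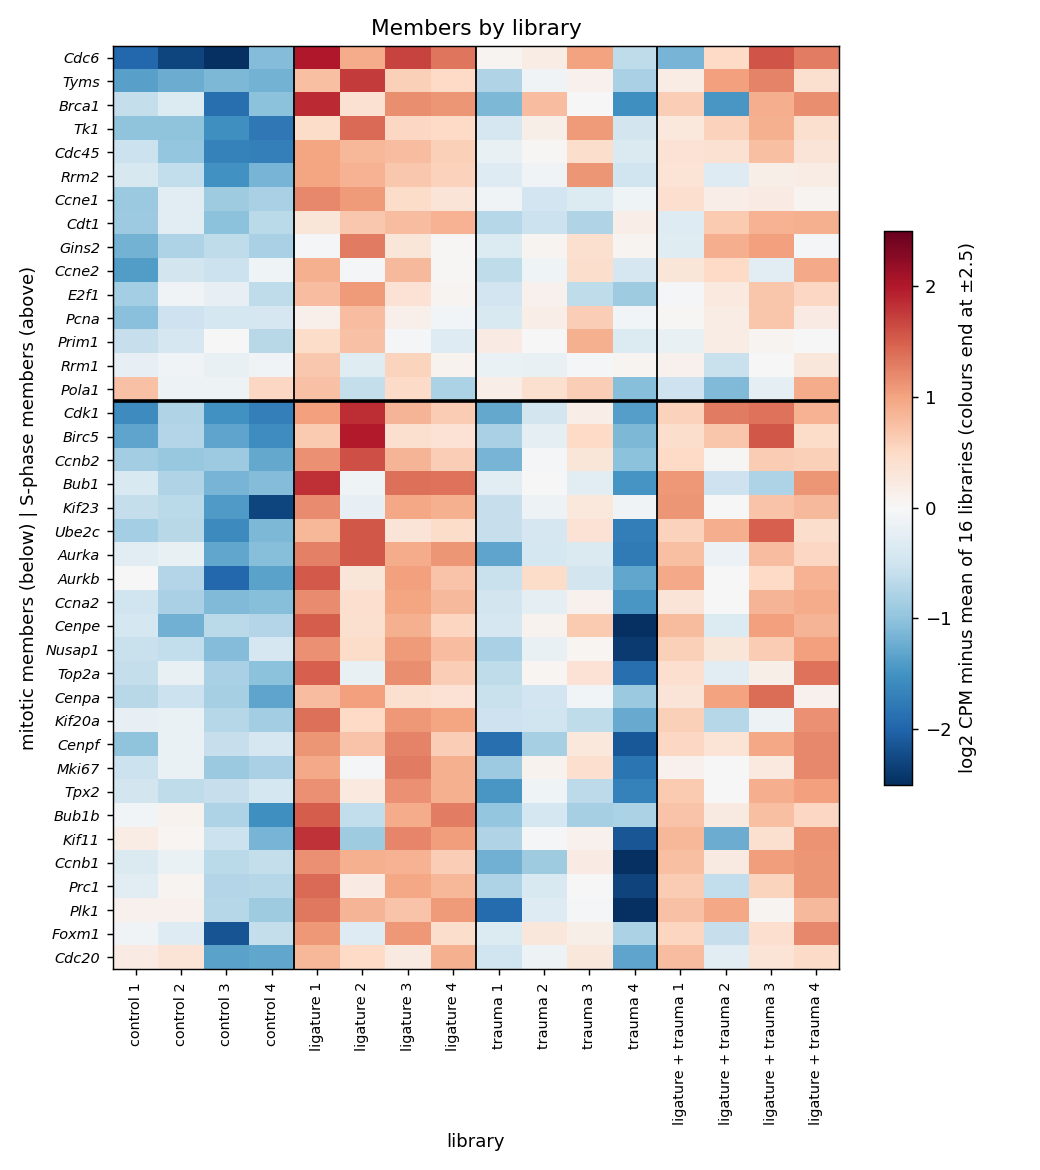
Log2 CPM of each member minus its mean over the 16 libraries, with S-phase members above the line and mitotic members below it; colours end at 2.5 on either side of 0. Ligature 1 holds the highest value for 19 members, and trauma 4 the lowest for 16.

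Adding trauma to the ligature changed 0 members at edgeR's threshold, as it did 0 of 20953 genes (0%), and DESeq2 called 0 members as well. The values were lower than with the ligature alone in 36 of 39 members, with a median of -0.24 on the log2 scale beside -0.01 over all genes. At an unadjusted edgeR p under 0.05, 1 member was lower, Ccne1 (-0.59 ± 0.25), where 1.63% of all genes were. Its levels of 9.23, 7.74, 7.93 and 7.18 CPM overlapped those with the ligature alone. Rrm2 (-0.68 ± 0.33) and Aurka (-0.71 ± 0.34) were the members with all libraries below the ligature group, where 0.778% of all genes were. Aurka read 25.5, 31.1, 20.4 and 22.8 CPM with the ligature and 17.9, 9.67, 18.2 and 15.2 CPM with both (edgeR adjusted p = 1). A missed threshold does not show that the groups were alike: the standard errors of these differences ran up to 0.56 on the log2 scale.

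Set against trauma alone, adding the ligature raised 7 of 39 members and lowered 0, where 2.21% of all genes rose and 3.27% fell. Tyms was the S-phase member among them (1.11 ± 0.31, edgeR adjusted p = 0.0483), at 20.6, 32.4, 37.3 and 19.6 CPM with trauma and 39.4, 70.7, 81.2 and 45.6 CPM with both. The others were mitotic: Cdk1, Ccnb1, Aurka, Cenpa, Cenpf and Tpx2. Tpx2 had the lowest p, at 6.54, 16.6, 11.4 and 5.55 CPM with trauma and 28.2, 18.2, 33.6 and 36.8 CPM with both (1.54 ± 0.33, edgeR adjusted p = 0.013). Cdk1 differed by 1.65 ± 0.36 and Ccnb1, at 54.6, 37.6, 66.9 and 69.6 CPM with both, by 1.65 ± 0.43. Aurka read 4.28, 7.89, 8.34 and 3.15 CPM with trauma and differed by 1.37 ± 0.35, and Cenpa read 12.8, 13.7, 18.1 and 9.94 CPM and differed by 1.27 ± 0.29. Plk1, at 6.50, 7.64, 4.08 and 6.86 CPM with both, lay above all trauma libraries and did not pass (1.56 ± 0.49, edgeR adjusted p = 0.0796).

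The medians of this comparison were 0.44 over the S-phase members and 1.12 over the mitotic members, beside -0.02 over all genes. In 12 members, 2 of S phase (Ccne1 and Tyms) and 10 of mitosis, each library with both lay above each with trauma alone, against 5.74% of all genes. The count of 7 rests on few libraries. It was 2 without the 3 libraries that leaned to short genes, 1 without ligature plus trauma 3 and 2 without trauma 1, and only Tpx2 passed in each fit that left out 1 library. The share of all genes called higher also fell, from 2.21% to 1.08%, 1.18% and 1.11% in these 3 fits. Without the 3 libraries the mitotic median exceeded the S-phase median by 1.02, in place of 0.67. The count was 4 without trauma 2, trauma 4 or ligature plus trauma 2, and 3 without ligature plus trauma 4. DESeq2 called 14 members higher, where it called 3.75% of 22615 genes higher. Among the inhibitors, Cdkn1a was lower with both than with trauma alone (-1.23 ± 0.20), at 833, 747, 711 and 924 CPM with trauma and 375, 379.6, 257 and 357 CPM with both, and so was Cdkn2b (-2.1 ± 0.44). Only these 2 of 25 tested G1 regulators and inhibitors passed, or 8%, beside 5.48% of all genes called in either direction. Basal epithelium markers were lower in 7 of 9 and upper epithelium markers in 7 of 8, while osteoclast markers were higher in 8 of 9 and endothelial markers in 6 of 10. Their part was not tested.

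The interaction, which asks whether trauma changed a gene differently in ligated than in unligated tissue, passed in 0 of 39 members and in 0 of 20953 genes (0%). DESeq2 called 1 member, Cdc45, lower, where it called 0.114% of 23666 genes lower. The value was negative in 34 of 39 members, with medians of -0.91 in S phase and -0.52 in mitosis beside -0.02 over all genes. The mitotic median was -0.28 without trauma 3, -0.33 without control 3 and -0.33 without ligature plus trauma 2. At an unadjusted edgeR p under 0.05, 8 members were lower, 7 of S phase (Ccne1, Cdc6, Cdc45, Rrm2, Tyms, Tk1 and Prim1) and Ccnb2, where 2.63% of all genes were. Rrm2 had the lowest p (-1.74 ± 0.46, edgeR adjusted p = 0.732): its mean was 16.8 ± 5.68 CPM in control, 34.9 ± 20.5 with trauma, 52.4 ± 6.99 with the ligature and 32.7 ± 6.09 with both (± SD, n = 4). Among mitotic members Ccnb2 had the lowest p (-1.30 ± 0.44, edgeR adjusted p = 0.969). It read 6.76, 14.7, 18.7 and 7.39 CPM with trauma and 21.2, 15.3, 23.3 and 22.9 CPM with both. The difference between the S-phase and mitotic sets in this term was not tested.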

How the data were processed

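RNA sequencing of 16 libraries in 4 groups of 4 was used, with groups taken from the treatment labels. The authors deposited raw read counts for each gene. RNA was extracted with TRIzol and a column kit and selected for poly(A) tails, per the labels' protocols. Build GRCm39 and the tools HISAT2 2.2.1, StringTie 2.1.7, Trimmomatic 0.39, FastQC 0.11.9 and DESeq2 1.32.0 are listed, without roles, per the submitters' processing notes. How reads were counted, on which annotation and with which strand setting is not given in the sources used here, so reads of overlapping or antisense genes cannot be told apart. Symbols and coding lengths came from GENCODE M21 on GRCm38. Symbols were found for 52083 genes and coding lengths for 22453, and genes without a symbol held 0.205% of the counts. No library repeats another (log2 CPM correlated at most at 0.948).

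Counts were tested with edgeR 4.0.16 (R 4.3.3, quasi-likelihood, trimmed-mean scaling, minimum count 10 in its filter) in 1 fit of 4 groups with 12 residual degrees of freedom, Benjamini-Hochberg adjusted over 20953 genes at 0.05. The script was tested on simulated data. CPM values are scaled, and scores used a prior count of 2. Per-library values are given for a fixed panel (Mki67, Top2a, Cdk1, Ccnb1, Plk1, Ccne1, Pcna, Rrm2, Cdc6, E2f1), for up to 4 members of each set with the lowest p that passed, and for the lowest p of each set where none did; values of Pola1 were added after they were seen. From each other list, up to 3 passing genes per direction are named. Members and lists were chosen with earlier results of these data known, and the length limit of 2000 bases after seeing the data. Alternatives were DESeq2 1.42.0 and its size factors, other filters, only the groups compared, a replicate block, 13 libraries, removal of the trend with length, the mitotic set without Ccna2, Top2a and Cdk1, and each library left out. With 58458102 to 77468584 counts per library, precision is set by how far libraries of a group differ rather than by counting error.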

Additional observations from a re-analysis of the deposited data

Results flagged for a closer look

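Within a group of 4 libraries, a value was singled out when its gap to the nearest other library, divided by the range of the group, was above Dixon's 95% critical value for 4 values. For independent values with a normal spread, chance singles out about 1 in 20 such groups. That rate is only rough here, since CPM were not logged and genes vary together. Of 168 groups, which include those of the scores, 11 were singled out, each for its highest value. In ligature 2, the library whose counts leaned most to short genes, Tk1 stood at 36.0 CPM against 18.6 to 19.3 in the others (ratio 0.960). Birc5 (0.893), Tyms (0.865) and Gins2 (0.835) were also highest there. In ligature plus trauma 3, Cdc45 (0.881, 10.5 CPM against 7.77 to 8.09) and Birc5 (0.837) were highest, and in ligature plus trauma 4 it was Mki67 (0.871, 70.5 CPM against 30.9 to 36.0). In trauma 3, Rrm2 read 65.3 CPM against 21.6 to 28.6 (0.841), and in trauma 4 Cdt1 read 5.34 CPM against 2.83 to 3.26 (0.8291), while most members were lowest in that library. In control 2, Cdk1 (0.849, 21.0 CPM against 10.96 to 12.48) and Ccne1 (0.832) were highest.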

How the results depend on the processing

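No member passed in opposite directions as reported and under an alternative run. Of 5577 single-member values recomputed, 5284 stayed on their side of the threshold, 204 lost the call and 89 gained it, and 114 that passed in neither fit changed sign. With DESeq2, 3 members passed for trauma against control (0 in edgeR), 14 for both against trauma (7 in edgeR) and 1 for the interaction (0 in edgeR). Against control, DESeq2 called 34 members higher with the ligature and 26 with both, where it called 9.28% and 10.6% of all genes higher. With the length trend removed, 31 and 26 members were higher, beside 6.86% and 6.92% of all genes. For both against trauma, 4 passed with only the groups compared and 11 with the length trend removed. Without the 3 libraries that leaned to short genes, 2 passed for both against trauma and 11 for both against control (19 with all), and the mitotic minus S-phase median for both against trauma was 1.02 (0.67 with all). With 1 library left out, 11 to 22 members passed for both against control, 1 to 9 for both against trauma and 19 to 31 for ligature against control; these counts had fewer libraries, and no other cause was tested. Of the 28 ligature calls, 18 held in every alternative run, against 8 of 19 for both against control and 1 of 7 for both against trauma. With the replicate number as a replicate block, 24, 20 and 8 members passed in these 3 comparisons and 0 in the others. Deviations of libraries with the same number correlated at -0.157 to 0.215. With so few libraries in a group, a weak shared effect could be missed, so these values cannot show whether the numbers pair the samples. Spread between libraries rather than depth limits the members.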
